A study of Mus musculus with 6 samples.

Results

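The DNA methylation writers and erasers are 10 mouse genes that set, copy or remove 5-methylcytosine, and their own methylation was examined here in cultured mesangial cells with and without TGF-β1. The members were taken by gene symbol from the GENCODE vM1 annotation of mm9 and lie on 7 chromosomes, among 22367 protein-coding genes in all. Every MeDIP-seq peak whose summit lay in one of these genes or within 5 kb of either end was taken, and overlapping peaks (1 bp or more) were combined into 1 region, which gave 80 of the 170444 regions of the series. MeDIP-seq enriches methylated DNA fragments with an antibody, and the pileup of a peak is the number of extended fragments stacked over its summit. The 6 samples were primary mouse mesangial cells, the contractile cells that hold the capillary loops of the kidney glomerulus. All were described as grown in medium with 25.5 mM glucose and 20% serum and used at passages 3 to 6. The 3 TGF-β1 samples received 10 ng/ml of the cytokine for 72 h, and the 3 control samples are labelled only as control, with no vehicle, mouse strain or culture number given. P-values therefore measure the spread between these samples, which may be technical, and the cell type was taken from the labels because peak lists hold no expression values.

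DNA methylation at CpG dinucleotides is copied onto the new strand after replication by Dnmt1, which Uhrf1 recruits by binding hemimethylated CpG. Dnmt3a and Dnmt3b place new methylation, with Dnmt3l as a cofactor that has no catalytic activity of its own, whereas Tet1, Tet2 and Tet3 oxidise 5-methylcytosine and Tdg excises the oxidised bases, a step that Gadd45 proteins are reported to assist. CpG-rich promoters are usually unmethylated in somatic cells, while gene bodies are usually methylated.

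The samples held 9407103 to 13291419 reads, and every TGF-β1 sample (12634300 reads or more) was deeper than every control sample (11494356 reads or fewer). The lowest pileup that was called was 8 in the control samples and 9 to 10 in the TGF-β1 samples, so a lack of a peak means that no enrichment was called at this depth, not that methylation was absent. In each group, 1 library stood slightly apart in the median GC content of its peaks. The median GC content of the peaks was 47.7% in control replicate 1, and that of TGF-β1 replicate 3 was 47.9%, against 48.3% to 48.8% in the other 4 samples. These libraries were less alike in how pileup changed with GC content over the regions. Per 10% of GC, log2 pileup changed by -0.129 for the control library and by only -0.025 for the TGF-β1 library. It rose most in control replicate 3, by 0.082, and by 0.014 to 0.035 in the remaining samples. The group comparisons were also made without this low-GC pair, which was chosen after the data were seen.

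All 10 genes held at least 1 region, as 80.2% of all protein-coding genes did, and most summits lay inside the genes. Gene bodies also made up most of the searched sequence, at 20.17 to 108.4 kb per gene with 5 kb on either side. Gadd45b, at 2.114 kb, was the exception. Whether summits favoured gene bodies was not tested. Of the 80 regions, 52 had their summit in an intron, 14 in a coding exon, 5 in an untranslated exon part, 3 upstream and 6 downstream of the gene. A total of 28 regions (35%) were called in all 6 samples, 33 in 2 to 5 samples and 19 (23.8%) in a single sample, beside 24.5% and 27.3% of all regions called in all 6 samples and in 1 sample. Regions called in all 6 samples were present in 9 of the 10 genes, with Dnmt3b as the exception, while 48.0% of all protein-coding genes held one. Neither this share nor the 80.2% was matched for gene length or number of regions. The members held 2 to 14 regions each, beside a median of 3 over all protein-coding genes. Among those 28, 15 summits lay in introns and 8 in coding exons. The number of regions per 10 kb of gene and flanks ran from 0.829 at Dnmt3b to 1.80 at Dnmt1, and the interquartile range over all protein-coding genes was 0.330 to 1.58 with a median of 0.946.

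**Figure D1:**
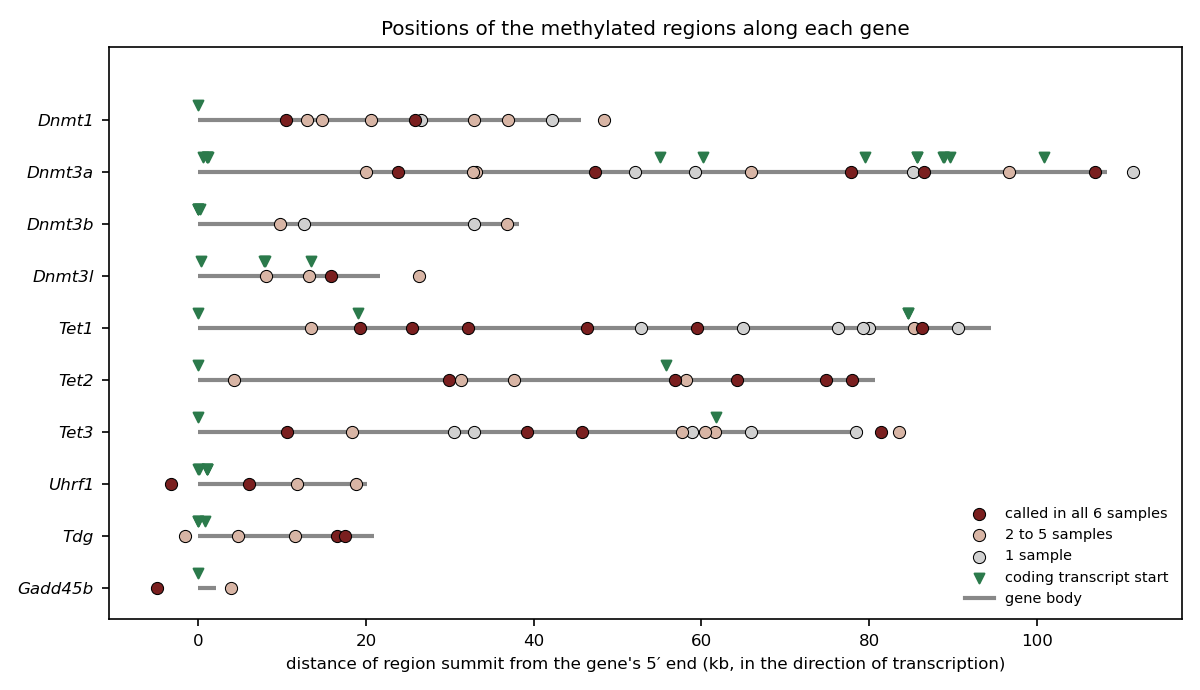
Position of each of the 80 regions along the 10 genes, as distance of the summit from the gene's 5′ end in kb, with the colour giving the number of samples in which the region was called and green triangles giving the starts of coding transcripts. Dark points, called in all 6 samples, lie along the gene bodies and in the flanks of Uhrf1, Gadd45b and Tet3, and Dnmt3b has none.

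None of the 10 outermost starts of coding transcripts had a summit within 1 kb. The use of the outermost start alone was chosen after the data were seen. For Dnmt3l and Tet1, the gene models used here to number exons begin at internal starts, 77512587 and 62342762. These starts lie inside regions called in 5 and 6 samples, so the absence depends on which start is taken. The model used for Tet2 also begins at an internal start, 133151635. It lay 770 bp from the edge of a region called in all 6 samples, but had no summit within 1 kb. The closest region lay 1385 bp upstream of Tdg and the farthest 19245 bp downstream of the Dnmt3a start. Over all protein-coding genes, 13.8% had a summit within 1 kb of the outermost coding start, and this share was 8.94% where the CpG observed/expected ratio within 500 bp of the start was above 0.6 and 17.9% where it was 0.6 or lower, so the absence at all 10 starts is close to what most genes showed. The ratio compares the number of CpG with that given by the C and G content, and its median over all genes was 0.553. Among the members it was highest at the starts of Tet2 (0.920), Tdg (0.872), Dnmt3b (0.830), Gadd45b (0.794) and Dnmt3a (0.769). It was intermediate at Dnmt1 (0.586), Tet3 (0.537) and Uhrf1 (0.532). The annotated outermost starts of Tet1 (0.270) and Dnmt3l (0.195) were CpG-poor.

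**Figure D2:**
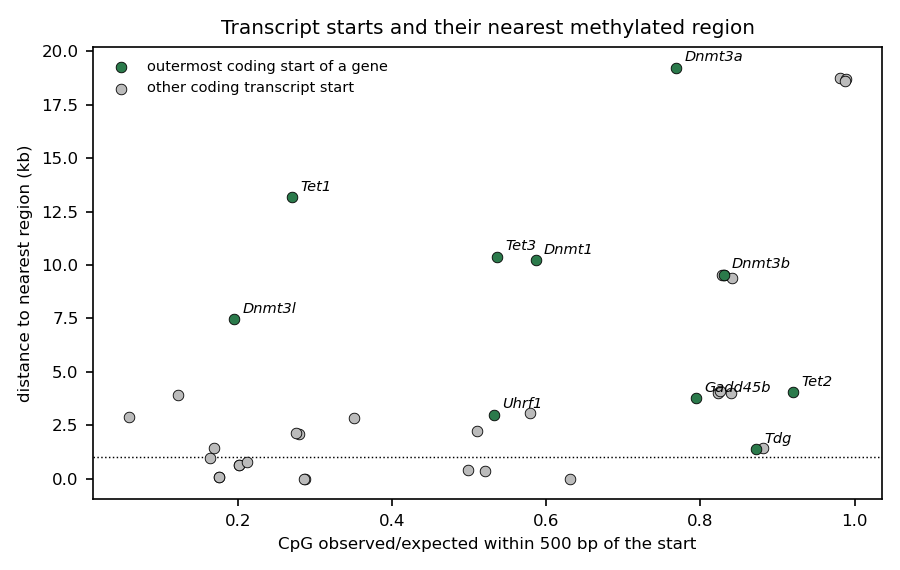
CpG observed/expected ratio within 500 bp (x axis) and distance in kb to the nearest edge of a region (y axis) for the 39 starts of coding transcripts of the 10 genes, with the outermost start of each gene in green and a dotted line at 1 kb. All 10 green points lie above the line, and the points below it are internal starts.

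Internal starts did carry regions. Of the 39 annotated starts of coding transcripts, 9 had a summit within 1 kb, which gave 7 regions near a start in 4 genes, with 2 each at Dnmt3a, Dnmt3l and Tet1 and 1 at Tet3. Regions near a start in all 6 samples were found at 2 genes, Dnmt3a and Tet1, beside 5.61% of all protein-coding genes, and 20.9% of all genes held any region near a start. Members with many annotated starts have more places to be counted, from 1 start in Dnmt1 and Gadd45b to 13 in Dnmt3a.

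The sequences that bear on this contrast are printed in the sense of the gene, with every CpG in capitals, from the mm9 (NCBIM37) genome. The first 3 come from the regions near a start that were called in at least 5 samples, the next 2 are the all-sample region with the highest mean pileup and the upstream all-sample region with the highest fold enrichment, and the last 2 are the bases just before the outermost starts of Dnmt3b and Tdg, where no region was called. Untranslated exon parts were left out.
Dnmt3a, intron 6, chr12:3892393-3892692, plus strand: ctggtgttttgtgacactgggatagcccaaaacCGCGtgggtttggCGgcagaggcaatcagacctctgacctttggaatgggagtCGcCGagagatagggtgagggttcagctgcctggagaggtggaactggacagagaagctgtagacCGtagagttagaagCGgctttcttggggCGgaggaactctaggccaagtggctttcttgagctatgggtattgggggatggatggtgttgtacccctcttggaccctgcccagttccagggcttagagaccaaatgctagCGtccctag
Dnmt3l, start codon and first coding bases, chr10:77512828-77512961, plus strand: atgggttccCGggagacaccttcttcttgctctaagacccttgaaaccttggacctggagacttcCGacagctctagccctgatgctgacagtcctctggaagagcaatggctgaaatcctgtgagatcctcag
Tet1, first coding exon, chr10:62342425-62342724, minus strand: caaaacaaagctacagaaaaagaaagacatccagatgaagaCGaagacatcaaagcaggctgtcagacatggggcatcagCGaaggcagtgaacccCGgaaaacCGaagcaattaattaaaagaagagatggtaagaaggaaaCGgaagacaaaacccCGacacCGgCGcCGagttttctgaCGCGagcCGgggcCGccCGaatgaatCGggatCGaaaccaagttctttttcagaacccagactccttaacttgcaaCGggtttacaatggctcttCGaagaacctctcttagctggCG
Tet1, coding exon 12, chr10:62275479-62275778, minus strand: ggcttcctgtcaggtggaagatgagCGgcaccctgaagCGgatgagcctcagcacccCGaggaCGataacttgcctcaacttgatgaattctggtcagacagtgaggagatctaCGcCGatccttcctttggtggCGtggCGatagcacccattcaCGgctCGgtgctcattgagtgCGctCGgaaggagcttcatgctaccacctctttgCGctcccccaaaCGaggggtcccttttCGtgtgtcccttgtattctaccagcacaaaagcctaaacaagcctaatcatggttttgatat
Uhrf1, upstream flank, chr17:56439355-56439654, plus strand: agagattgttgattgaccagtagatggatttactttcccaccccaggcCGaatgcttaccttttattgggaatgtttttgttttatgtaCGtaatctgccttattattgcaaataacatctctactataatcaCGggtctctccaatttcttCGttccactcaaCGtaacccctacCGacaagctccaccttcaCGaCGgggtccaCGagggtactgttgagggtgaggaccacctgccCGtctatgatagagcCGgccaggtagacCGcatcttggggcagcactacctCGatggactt
Dnmt3b, before the outermost start, chr2:153474886-153475185, plus strand: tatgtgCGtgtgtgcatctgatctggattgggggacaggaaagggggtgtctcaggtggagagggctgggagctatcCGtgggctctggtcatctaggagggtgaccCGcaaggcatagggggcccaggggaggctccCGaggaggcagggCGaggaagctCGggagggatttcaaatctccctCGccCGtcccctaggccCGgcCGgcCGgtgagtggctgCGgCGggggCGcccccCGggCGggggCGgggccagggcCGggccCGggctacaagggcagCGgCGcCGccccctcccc
Tdg, before the outermost start, chr10:82092273-82092572, plus strand: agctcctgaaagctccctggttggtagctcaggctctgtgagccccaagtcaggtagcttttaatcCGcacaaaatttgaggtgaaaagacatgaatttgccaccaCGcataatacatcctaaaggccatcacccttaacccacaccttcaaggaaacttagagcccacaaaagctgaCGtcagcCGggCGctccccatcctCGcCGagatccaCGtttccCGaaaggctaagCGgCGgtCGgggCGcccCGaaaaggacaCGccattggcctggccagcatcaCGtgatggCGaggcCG
In these stretches the called Tet1 first coding exon held 19 CpG in 300 bases, near the 22 before Dnmt3b and the 18 before Tdg, where no peak was called. The Dnmt3a intron held 9 CpG and the Uhrf1 flank 13 CpG in the same length, and Tet1 exon 12 held 15.

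Over all members, the regions were close to all called regions in length and number of CpG, with a higher median GC content. Their median length was 381.5 bp with 10 CpG and a GC content of 49.6%, beside 380.0 bp, 9 CpG and 47.9% in all regions on the numbered chromosomes, X and Y. Members' regions called in all 6 samples had a median of 469 bp and 12 CpG, and those called in 1 sample 292 bp and 7 CpG, beside 492 bp and 13 CpG and 296 bp and 7 CpG over all regions. The median CpG observed/expected ratio of the regions called in all 6 samples was 0.430 at the members, beside 0.484 over all regions. These differences were not tested.

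Peak numbers at the genes did not separate the groups. Summed over the 10 genes, there were 48, 44 and 50 peaks in control and 54, 54 and 46 peaks in TGF-β1. The peaks in promoters, within 1 kb of a coding start, numbered 4, 5 and 4 in control and 5, 4 and 3 in TGF-β1, and those elsewhere in the gene bodies 39, 33 and 40 in control and 41, 43 and 37 in TGF-β1. The mean was higher in TGF-β1 at 8 genes, lower at Tet1 and equal at Dnmt3a, and the groups overlapped at all 10. Over all genes with a peak, 3.91% had peak numbers that were higher in every TGF-β1 sample than in any control sample and 0.345% lower in every one. Exact two-sided permutation tests of 3 against 3 samples, whose smallest possible p is 0.1, gave p from 0.4 at Uhrf1 to 1, with adjusted p of 1 over all genes. Sequencing depth differed with treatment, and the 2 cannot be told apart here. When peaks were divided by reads, the difference turned from higher to lower in TGF-β1 at 6 genes, and Tet2 was lower in every TGF-β1 sample (exact two-sided permutation p = 0.1). Without control replicate 1, the Uhrf1 numbers were higher in every TGF-β1 sample, and without TGF-β1 replicate 3 those of Tet3 were. The shares of all genes that separated under these settings were not computed, and fewer samples separate more easily. These separations are therefore not read as traits of the members.

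**Figure D3:**
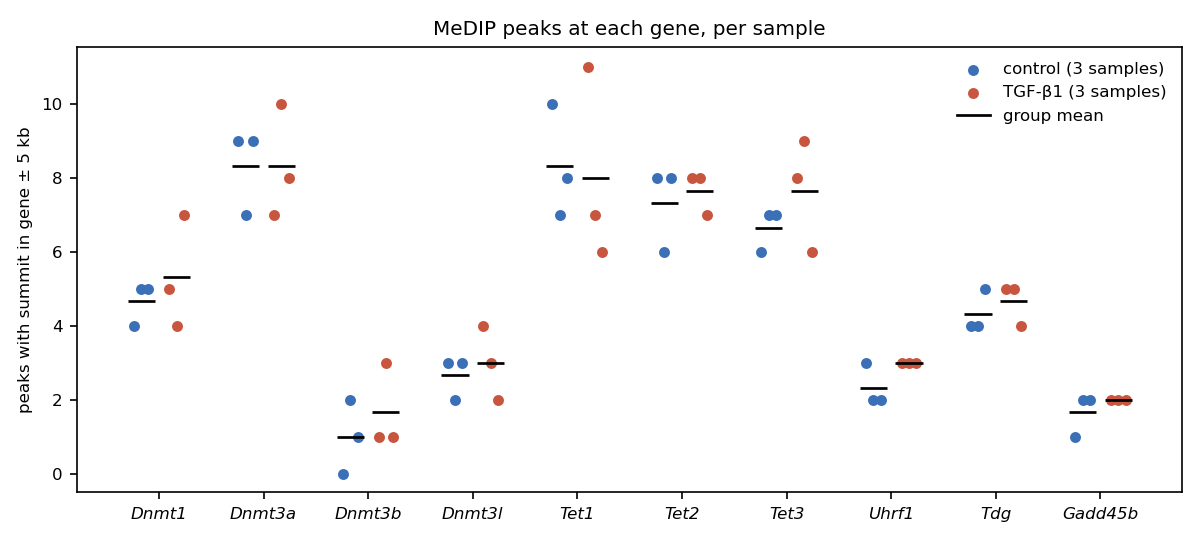
Number of MeDIP peaks with a summit in each gene or within 5 kb of it (y axis) for the 10 genes (x axis), with 1 point per sample and a black line at the mean of 3 samples. The points of the control and TGF-β1 samples overlap at every gene, with Tet1 between 6 and 11 peaks and Dnmt3b between 0 and 3.

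The level at the regions called in all 6 samples was compared by limma on log2 of the highest pileup, centred in each sample on its median over the 41744 regions called in all 6 samples. None of the 28 regions of the members passed an adjusted p below 0.01 with an absolute log2 fold change above 2, and neither did any other region (0%). Only regions called in every sample were fitted, so a region lost or gained in 1 group was left out before the test. The lowest called pileups were 8 to 10, and the pileups at the members' regions were 12 to 62. Changes of that size could hardly be seen at the lower pileups, so the lack of calls does not show that they were absent. In an unadjusted comparison 1 member region was higher in TGF-β1 (p below 0.05) and 0 were lower, beside 1.96% higher and 2.22% lower over all regions. The smallest adjusted p was 0.999. The fitted log2 difference was above 0 at 17 regions and below 0 at 11, with a median of 0.04 against -0.0047 over all regions and a range of -0.37 to 0.50. Averaged per gene over its shared regions, the difference was above 0 at 8 genes and below 0 at Tet1, none of the 9 genes with such regions reached an unadjusted p below 0.05 (4.84% of the 10728 genes with such a region did), and the smallest adjusted p was 0.998. Without control replicate 3, Dnmt3l did so, with a log2 difference of 0.417 against 0.293 in all samples (limma unadjusted p = 0.0391). Without control replicate 2 its mean was 0.068, but the region over its internal starts then entered that mean. The region in intron 11 alone, which gave the 0.293, was at 0.305 without that sample. The number of samples limits these statements. The 95% intervals at single regions reached as low as -0.78 and as high as 0.92, so differences of such sizes remain possible at regions that passed no test.

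**Figure D4:**
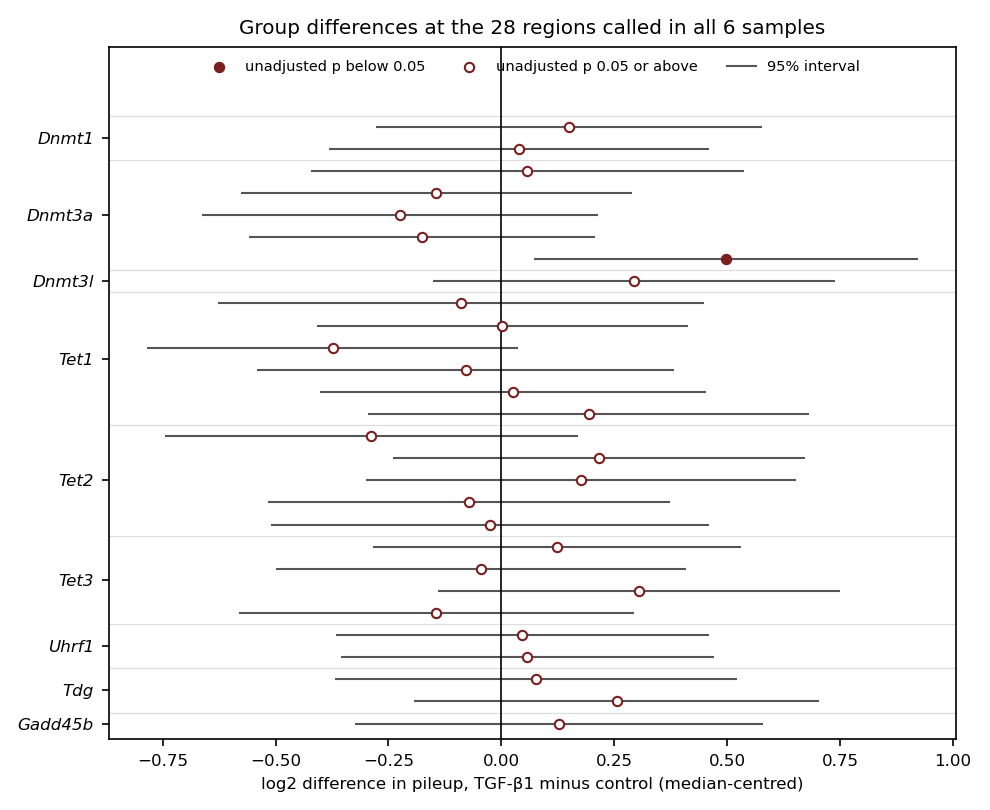
Log2 difference in pileup, TGF-β1 minus control, with its 95% interval from limma (x axis) for each of the 28 regions called in all 6 samples, grouped by gene and ordered from 5′ to 3′ within each gene. The intervals of 27 regions include 0, and the filled point is the 3′ region of Dnmt3a.

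Maintenance of methylation rests on Dnmt1 and Uhrf1. Dnmt1 spans chr9:20711650-20757317 on the minus strand and had 4, 5 and 5 peaks in control and 5, 4 and 7 in TGF-β1, in 10 regions. Its 2 all-sample regions lie in introns. The one in intron 13 (chr9:20731314-20731690) had pileups of 26, 26 and 28 in control and 33, 38 and 26 in TGF-β1. TGF-β1 replicate 3 equalled the lowest control sample, so the groups overlapped. The log2 difference was 0.04 (standard error 0.21, limma adjusted p = 0.999), and 0.272 without the low-GC pair. The other, in intron 2 (chr9:20746687-20747105), had pileups of 20, 18 and 28 in control and 30, 27 and 27 in TGF-β1, with overlap through control replicate 3. The highest single pileup of the gene, 46 in control replicate 3, came from a coding exon 23 region called in 5 samples.

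Uhrf1 (chr17:56442744-56462909, plus strand) held 3, 2 and 2 peaks in control and 3 in each TGF-β1 sample. Its all-sample region with the highest mean pileup lay 3239 bp upstream of the nearest start, within the neighbouring gene Arrdc5 (chr17:56439266-56439751), and had the highest mean fold enrichment of the upstream regions, 9.75 over the local background. Its pileup was 21, 22 and 29 in control and 27, 28 and 31 in TGF-β1. Control replicate 3 lay above 2 of the TGF-β1 samples, and scaled to 1000000 reads the means were 2.30 ± 0.25 in control and 2.22 ± 0.11 in TGF-β1 (SD, n = 3 each). The region in coding exon 3 (chr17:56448626-56448999) had pileups of 23, 21 and 26 in control and 29, 25 and 31 in TGF-β1, with a log2 difference of 0.06 (limma adjusted p = 0.999). A region in intron 16 was called in 2 TGF-β1 samples, with pileups of 24 and 22, and in no control sample.

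Of the de novo methyltransferases, Dnmt3a held 1.18 regions and Dnmt3b 0.829 regions per 10 kb, both inside the interquartile range of all genes. Dnmt3a (chr12:3806007-3914443, plus strand) held 9, 7 and 9 peaks in control and 7, 10 and 8 in TGF-β1, in 14 regions of which 5 were called in all 6 samples. The 4 starts at its 5′ end had no region within 18612 bp, while an internal start at position 3891744, which gives a shorter coding transcript, had an all-sample region 799 bp downstream (chr12:3892172-3892737, the Dnmt3a sequence above). Its pileup was 36, 32 and 34 in control and 30, 36 and 40 in TGF-β1, so that TGF-β1 samples were both the lowest and the highest. The log2 difference was -0.18 (95% interval -0.56 to 0.21, limma adjusted p = 0.999). A CpG-denser region 525 bp upstream of the internal starts, with a CpG observed/expected ratio of 0.959, was called in control replicate 2 alone, at a pileup of 21.

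The single member region with an unadjusted p below 0.05 lay in the 3′ untranslated part of the last exon of Dnmt3a, exon 23 (chr12:3912715-3913173). Its pileup was 18, 25 and 29 in control and 41, 29 and 49 in TGF-β1. TGF-β1 replicate 2 equalled the highest control sample, and the other 2 TGF-β1 samples were above all controls. Per 1000000 reads, the means were 2.31 ± 0.49 in control and 3.07 ± 0.71 in TGF-β1 (SD, n = 3 each). The log2 difference was 0.50 (standard error 0.21, 95% interval 0.07 to 0.92, limma unadjusted p = 0.0231, adjusted p = 0.999). It did not pass the adjusted test with all samples or with any sample left out. The limma unadjusted p was 0.093 without control replicate 1, 0.0941 without TGF-β1 replicate 1 and 0.16 without TGF-β1 replicate 3. It was 0.0124 without control replicate 2, 0.0257 without control replicate 3 and 0.00638 without TGF-β1 replicate 2. Without the pair of low-GC libraries, control replicate 1 and TGF-β1 replicate 3, the difference was 0.24 (limma unadjusted p = 0.325). With 14 CpG, the region had a CpG observed/expected ratio of 0.739, above the median of 0.430 of the members' regions.

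Dnmt3b (chr2:153475186-153513466, plus strand) held 0, 2 and 1 peaks in control and 1, 3 and 1 in TGF-β1, and none of its 4 regions was called in all 6 samples. The region in intron 2 (chr2:153484734-153485158) was called in control replicate 2, with a pileup of 18, and in all 3 TGF-β1 samples, with 24, 20 and 18. Dnmt3l (chr10:77504692-77526367, plus strand) held 3, 2 and 3 peaks in control and 4, 3 and 2 in TGF-β1. A region over its 2 internal starts at 77512587 and 77512704 (chr10:77512486-77512961), which reaches the start codon printed above, was called in 5 samples. The pileup was 20 and 27 in control replicates 1 and 3 and 15, 32 and 25 in TGF-β1, and no peak was called in control replicate 2, the shallowest library. The all-sample region in intron 11 (chr10:77520372-77520764) had pileups of 15, 17 and 25 in control and 23, 30 and 27 in TGF-β1, overlapping through control replicate 3, with a log2 difference of 0.29 (95% interval -0.15 to 0.74, limma adjusted p = 0.999).

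**Figure D5:**
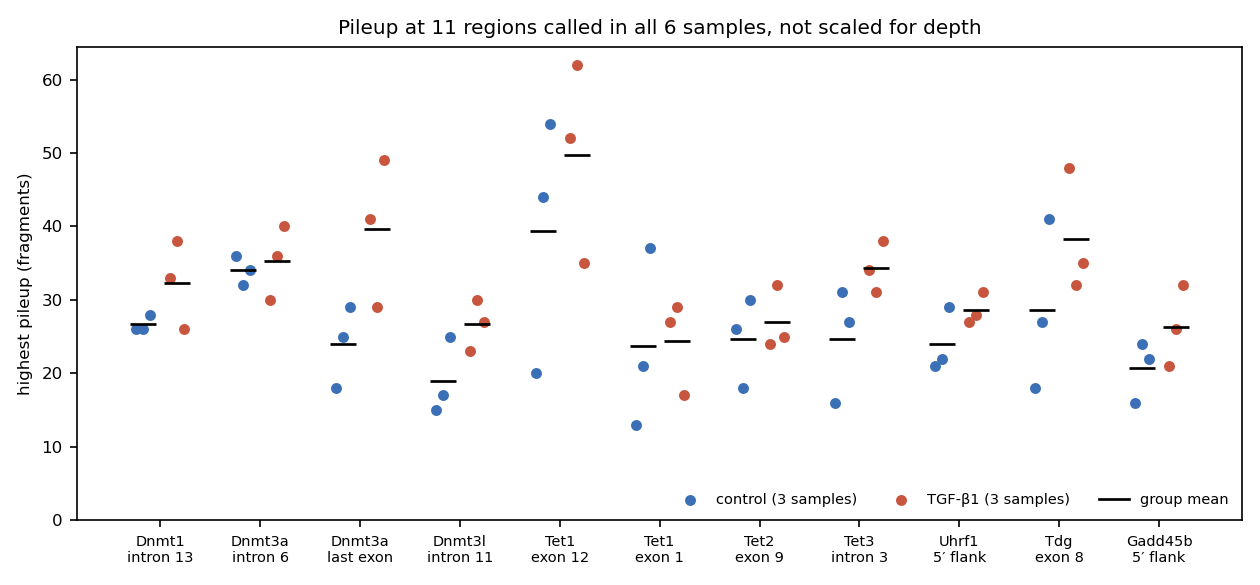
Highest pileup in fragments (y axis, not scaled for depth) in each sample at 11 regions called in all 6 samples (x axis), namely the region with the highest mean pileup of each gene that has one, those near a start and the one with an unadjusted p below 0.05. Black lines give the mean of 3 samples, and the points of both groups overlap or touch at every region, with the widest spread at Tet1 exon 12, from 20 to 62.

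The 3 oxidases were methylated along their bodies. Tet1 (chr10:62267318-62361866, minus strand) held the most all-sample regions, 6 of 14, and 10, 7 and 8 peaks in control and 11, 7 and 6 in TGF-β1. The start at 62342762, which lies 19104 bp inside the gene, belongs to transcript models that begin at the start codon itself, and the transcript from the outermost start uses the same codon. The region there (chr10:62342308-62342804) therefore covers the first coding bases as well as an annotated start. It held 26 CpG at an observed/expected ratio of 0.850. Its pileup was 13, 21 and 37 in control and 27, 29 and 17 in TGF-β1. The values of the control samples enclosed those of TGF-β1, and the lowest value of each group came from the low-GC library. The log2 difference was -0.09 (95% interval -0.63 to 0.45, limma adjusted p = 0.999), and -0.12 without this pair.

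Coding exon 12 of Tet1 carried the highest pileups of all members, in a region of 32 CpG (chr10:62275145-62276173). The pileup was 20, 44 and 54 in control and 52, 62 and 35 in TGF-β1, and again the low-GC library was lowest in each group. This order did not hold throughout. TGF-β1 replicate 3 was the highest TGF-β1 sample at Dnmt3a intron 6 and exon 23 and at Tet3 intron 3. It was also the highest upstream of Uhrf1, in Uhrf1 exon 3 and upstream of Gadd45b. The groups overlapped, with a log2 difference of 0.19 (95% interval -0.30 to 0.68, limma adjusted p = 0.999) and 0.10 without the low-GC pair. In intron 1 (chr10:62329427-62329905) the pileup was 32, 31 and 29 in control and 30, 28 and 25 in TGF-β1. This was the lowest log2 difference of the members, -0.37 (95% interval -0.78 to 0.04, limma unadjusted p = 0.0731, adjusted p = 0.999).

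Tet2 (chr3:133126643-133207354, minus strand) held 8, 6 and 8 peaks in control and 8, 8 and 7 in TGF-β1, and 5 of its 9 regions were called in all 6 samples. Of these 5, 3 lay in coding exons. The one with the highest mean pileup, in coding exon 9 of the model used for numbering (chr3:133132282-133132715), had pileups of 26, 18 and 30 in control and 24, 32 and 25 in TGF-β1, with a log2 difference of -0.07 (limma adjusted p = 0.999). Tet3 (chr6:83312367-83391672, minus strand) held 6, 7 and 7 peaks in control and 8, 9 and 6 in TGF-β1, and 4 of its 14 regions were called in all 6 samples, 1 of them in the 3′ flank within Bola3. The intron 3 region with the highest mean pileup (chr6:83345730-83346159) had pileups of 16, 31 and 27 in control and 34, 31 and 38 in TGF-β1. The groups touched at 31, and the log2 difference was 0.30 (95% interval -0.14 to 0.75, limma adjusted p = 0.999). The low value of 16 came from control replicate 1, and the difference was 0.078 without that library and 0.046 without the low-GC pair. It was 0.571 without control replicate 2 (limma unadjusted p = 0.0191).

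The repair side of demethylation is represented by Tdg, a thymine DNA glycosylase, and Gadd45b, a stress-induced gene whose protein has been linked to active demethylation. Tdg (chr10:82092573-82113544, plus strand) held 4, 4 and 5 peaks in control and 5, 5 and 4 in TGF-β1. Its exon 8 region (chr10:82109868-82110388) had pileups of 18, 27 and 41 in control and 48, 32 and 35 in TGF-β1. Control replicate 3 lay above 2 TGF-β1 samples, and the log2 difference was 0.25 (95% interval -0.19 to 0.70, limma adjusted p = 0.999). It was 0.018 without control replicate 1, 0.052 without TGF-β1 replicate 1, 0.462 without control replicate 3 and 0.116 without the low-GC pair. Upstream of Tdg, 1634 bp from the outermost start, a region was called in 5 samples with pileups of 16 and 17 in control replicates 1 and 3 and 21, 14 and 20 in TGF-β1. Gadd45b (chr10:80392836-80394949, plus strand), a gene of 2.11 kb, had no region in its body. Its all-sample region lay 4877 bp upstream (chr10:80387726-80388154), with pileups of 16, 24 and 22 in control and 21, 26 and 32 in TGF-β1, which overlapped, and a log2 difference of 0.13 (95% interval -0.32 to 0.58, limma adjusted p = 0.999).

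Regions called in more samples of one group than the other were few. No region was called in all 3 samples of a group while missing from every sample of the other group. Those called in at least 2 more TGF-β1 than control samples numbered 5 (6.25%, beside 7.85% of all regions), and 0 were called in at least 2 more control samples (beside 3.12%). They lay in introns of Dnmt3a, Dnmt3b and Uhrf1, with 1 each, and of Tet3, with 2. In intron 4 of Tet3, the region chr6:83331009-83331368 had a pileup of 18 in control replicate 2 and 24, 21 and 24 in TGF-β1, and the region chr6:83333755-83334088 was called only in TGF-β1 replicates 1 and 2, at 22 and 20. In intron 2 of Dnmt3a, the region chr12:3838560-3838928 had a pileup of 16 in control replicate 1 and 20, 13 and 23 in TGF-β1. Regions with such an excess in TGF-β1 numbered 2 without the low-GC pair. Their number was 0 to 1 when any single TGF-β1 sample was left out and 10 to 12 when any single control sample was.

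The other genes of the pathway were summarised in the same way. All 16 (Gadd45a, Gadd45g, Uhrf2, Hells, Usp7, Dppa3, Mbd4, Smug1, Ung, Ogt, Trdmt1, Cxxc4, Cxxc5, Ahcy, Mat2a and Pcna), among them cofactors, further glycosylases and the enzymes of methyl donor supply, held a region, with 50 regions in all and 11 in all 6 samples. Of these genes, 4 (Dppa3, Hells, Ung and Usp7) had an all-sample region within 1 kb of a start, beside 5.61% of all genes. None had peak numbers that separated the groups in either direction (3.91% and 0.345% of all genes with a peak, higher and lower in TGF-β1), and none of the 8 with an all-sample region reached an unadjusted limma p below 0.05 (4.84% of all such genes). Their log2 differences ran from -0.32 to 0.30, with 6 above 0 and 2 below, and the smallest adjusted p was 0.990.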

How the data were processed

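MeDIP-seq peak lists of 3 control and 3 TGF-β1 samples were used. The authors, as their methods and the file headers state, mapped reads to mm9 with BWA, kept uniquely mapped reads, removed duplicates and called peaks in each sample separately with MACS2 at a q of 0.01, with no input and a local background of 10000 bp. The deposited pileup is a signal, not normalised for depth, the deposited fold enrichment is a ratio to local background, and p-values and q-values were deposited as -log10. Reads outside called peaks were not used, so the read-count test of the study was not repeated.

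Peaks were joined at 1 bp of overlap over the whole genome (NCBIM37, the mm9 assembly, GENCODE vM1) and assigned by summit to genes and 5 kb on either side, and a promoter was 1 kb on either side of a coding transcript start. Python 3.11.15 and R 4.3.3 were used. Regions called in all 6 samples were fitted with limma 3.58.1 (lmFit, eBayes with a trend) on median-centred log2 pileup, and p-values were adjusted by Benjamini-Hochberg over all regions or genes. The fit was also run on simulated data, with changes larger than any fitted at the members. That run does not show whether smaller differences could be found. The same fit was made on the mean of each gene's shared regions. Exact permutation tests (two-sided) were used for peak numbers. The regions named with values in every sample are, per gene, the all-sample region with the highest mean pileup, those near a start and those with an unadjusted p below 0.05 or called in 1 group only. Other regions given with values, such as the intron 1 region of Tet1, were chosen after their values were seen. The member genes and the list of other pathway genes were chosen with earlier results of these data known. Alternatives covered scaling, fold enrichment, stricter peaks, joining distance, windows, promoter definitions, each sample left out and the replicate number as a block. The alternatives with the outermost start only and both low-GC libraries left out, were chosen after seeing the data.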

Additional observations from a re-analysis of the deposited data

How the results depend on the processing

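No member region or gene passed the adjusted thresholds under any alternative, so the sign changes below concern differences that no test called, and their cause was not tested beyond the alternative's own construction. The number of member regions at an unadjusted p below 0.05 was 0 with fold enrichment in place of pileup (4.41% of all regions). It was 0 with regions called in at least 3 samples (4.05%) and 0 with both low-GC libraries left out (4.54%). With each sample left out it was 0 to 2 (3.4% to 6.15%). With so few member regions, such counts do not set the members apart from these shares. Scaling by reads shifted the median of all regions to -0.10, and its 1 region was lower in TGF-β1 instead of higher (6.23% of all regions). Genes with separate peak numbers became 1 per 1000000 reads, 2 with both low-GC libraries left out and 0 to 1 with each sample left out. Groups of fewer samples separate more easily, and the shares of all genes at these settings were not computed. These numbers are therefore not read as a result about the members. Regions called in at least 2 more samples of a group, which depend directly on the number of samples, came to 0 to 12 for TGF-β1 and 0 to 3 for control with each sample left out, to 2 for TGF-β1 with both low-GC libraries left out, and to 1 for control at a fold enrichment of at least 5. Genes with a promoter region in all samples became 1 (Tet1) within 500 bp of a start, 1 (Dnmt3a) at a -log10 q of at least 5, 0 in the 2 kb upstream of the gene and 0 at the outermost start alone. Without control replicate 2 they became 3 by the addition of Dnmt3l.

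The labels do not state whether same-numbered samples were handled together. Deviations of same-numbered samples from their group means correlated at -0.05, 0.04 and -0.13. Such correlations cannot decide the question, and no pairing was assumed in the main tests. With the replicate block, 1 region had an unadjusted p below 0.05 (3.67% of all regions), no call changed, and no peak numbers separated the groups.

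Mean log2 differences per gene changed sign when scaled by reads at Dnmt3a (-0.089), Tet2 (-0.089), Tet3 (-0.031) and Uhrf1 (-0.039), and with fold enrichment at Dnmt3a (-0.004) and Tet2 (-0.014). With each sample left out they ran from -0.078 to 0.20 at Dnmt1, -0.066 to 0.07 at Dnmt3a, 0.068 to 0.417 at Dnmt3l, -0.159 to 0.044 at Tet1, -0.035 to 0.081 at Tet2, -0.027 to 0.128 at Tet3, -0.015 to 0.266 at Tdg and -0.004 to 0.32 at Gadd45b. Every region called in all remaining samples enters these means, so the set of regions changed between settings at some genes, such as Dnmt3l. Without both low-GC libraries Gadd45b was at -0.001. Among single regions, those of Dnmt1 intron 13 (-0.052) and upstream of Uhrf1 (-0.044) changed sign when scaled by reads, Tet1 exon 12 (-0.001) when joined at 200 bp, and Tet2 exon 9 (0.134) and upstream of Gadd45b (-0.096) without both low-GC libraries. With each sample left out, the ranges were -0.115 to 0.208 at Dnmt1 intron 13, -0.176 to 0.447 at Tet1 exon 12, -0.398 to 0.206 at the Tet1 start, -0.23 to 0.041 at Tet2 exon 9, 0.078 to 0.571 at Tet3 intron 3, 0.018 to 0.462 at Tdg exon 8 and -0.004 to 0.32 upstream of Gadd45b.

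Differences in mean peak number changed sign at a -log10 q of at least 5 for Tet1 (0.667), at a fold enrichment of at least 5 for Dnmt1 (-0.333), Tet1 (0.333) and Tet2 (-0.333), and without both low-GC libraries for Dnmt1 (-0.5) and Tet1 (1.5). Per 1000000 reads they were -0.0396 at Dnmt1, -0.0209 at Dnmt3l, -0.107 at Tet2, -0.0477 at Tet3, -0.053 at Tdg and -0.00595 at Gadd45b. With each sample left out they ran from -0.167 to 1.33 at Dnmt1, -0.167 to 0.833 at Dnmt3l, -1.83 to 0.667 at Tet1 and -0.333 to 0.667 at Tet2. Depth limits all of these, because a region below the lowest called pileup leaves no value.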
